A study of Mus musculus with 12 samples.

Results

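The mitochondrial genome of the mouse encodes 37 genes, and their transcripts were followed here through 12 RNA-seq libraries of L929 cells, an established mouse fibroblast line. All genes whose mapped mouse symbol starts with mt- were taken, which gave 37 of the 54532 genes in the count files, all of them on chromosome M. They comprise 13 protein-coding genes, 2 rRNA genes and 22 tRNA genes, of which 28 lie on the plus strand and 9 on the minus strand. The cells were transfected with HT-DNA, hpRNA, G3-YSD or HSV, or stimulated with cGAMP, the product of the DNA sensor cGAS that activates Sting, and were compared with untreated mock cells. RNA was collected 6 hours after transfection, polyA-containing RNA was selected, and reads were taken in pairs of 150 bases. Each label has 2 libraries, and abbreviations are those of the labels. The transfections are described as duplicates, and their making is not described further, so the p-values measure the spread between these libraries, part of which may be technical. For HSV the digits 1 and 2 may also name virus types, which the labels do not settle, so that its mean, SD and calls may not describe one group.

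Mitochondrial DNA is transcribed from both strands into long precursors, in mammals by the RNA polymerase Polrmt with the packaging factor Tfam, and most mRNAs and rRNAs are released when the tRNAs that lie between them are cut out. The 13 mRNAs encode core subunits of the respiratory chain, namely 7 of complex I (mt-Nd1, mt-Nd2, mt-Nd3, mt-Nd4, mt-Nd4l, mt-Nd5 and mt-Nd6), 1 of complex III (mt-Cytb), 3 of complex IV (mt-Co1, mt-Co2 and mt-Co3) and 2 of complex V, the ATP synthase (mt-Atp6 and mt-Atp8). mt-Rnr1 and mt-Rnr2 are the RNAs of the small and the large subunit of the mitochondrial ribosome. In mammals most mitochondrial mRNAs carry a short polyA tail added by Mtpap, the rRNAs carry at most a few added bases, and tRNAs carry none, so a polyA-selected library does not sample the classes equally.

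Several mitochondrial mRNAs end inside a stop codon, which the tail completes. The ends of the 3 members whose length leaves a single base past the last full codon are given from the GENCODE M21 transcripts (GRCm38, the assembly also called mm10), 5′ to 3′, with that base in capitals.
mt-Co3, chrM:9371-9390, plus strand: catttattgatgaggatctT
mt-Nd4, chrM:11525-11544, plus strand: aattacaggcctgacaataT
mt-Cytb, chrM:15269-15288, plus strand: aatactaaaattatatccaT

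The rRNAs hold short runs of A of their own. The longest run was 5 bases in mt-Rnr1 and 7 in mt-Rnr2, within the 3 to 8 bases of the longest runs of the mRNAs. These windows are shown because the rRNAs carry the main difference described here, and the capitals mark the run.
mt-Rnr1, chrM:685-729, plus strand: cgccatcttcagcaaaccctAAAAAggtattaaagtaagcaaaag
mt-Rnr2, chrM:1468-1514, plus strand: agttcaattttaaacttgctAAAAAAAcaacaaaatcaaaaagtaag

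For 7 of the 13 mRNAs a near-identical copy (at least 99% identity) is annotated in the nuclear genome, side by side between positions 24611535 and 24616197 of chromosome 1, as pseudogenes on the minus strand. Over their aligned stretch 5 of the copies matched without a mismatch, and the other 2 differed from the mitochondrial gene by a single base. These windows are shown because a read that misses that base cannot be placed by its sequence. The capital marks the base, and positions count from 1 at the start of the mitochondrial gene, whose base comes first: A1066T between mt-Co1 and Gm29216, and T3C between mt-Nd3 and Gm28438.
mt-Co1, chrM:6390-6449, plus strand: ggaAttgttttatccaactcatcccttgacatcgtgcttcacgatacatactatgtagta
Gm29216, chr1:24616129-24616188, minus strand: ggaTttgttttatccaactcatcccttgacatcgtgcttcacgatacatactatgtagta
mt-Nd3, chrM:9459-9518, plus strand: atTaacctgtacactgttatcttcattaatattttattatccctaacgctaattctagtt
Gm28438, chr1:24613060-24613119, minus strand: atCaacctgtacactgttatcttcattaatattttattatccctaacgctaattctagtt

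The whole of mt-Nd4l is given because all of it but the last 3 bases, in capitals, is found unchanged in the copy Gm10222.
mt-Nd4l, chrM:9877-10173, plus strand: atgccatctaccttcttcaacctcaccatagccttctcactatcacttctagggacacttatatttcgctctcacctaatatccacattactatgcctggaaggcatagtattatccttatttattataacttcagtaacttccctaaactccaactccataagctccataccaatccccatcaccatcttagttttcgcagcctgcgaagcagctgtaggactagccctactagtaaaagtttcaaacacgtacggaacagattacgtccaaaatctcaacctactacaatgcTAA

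mt-Atp8 and mt-Atp6 share 43 bases, in capitals, read in different frames. The overlap is shown because a read over it belongs to both genes, and how the counting treated such reads is not given in the sources used here.
mt-Atp8 and mt-Atp6, chrM:7907-7989, plus strand: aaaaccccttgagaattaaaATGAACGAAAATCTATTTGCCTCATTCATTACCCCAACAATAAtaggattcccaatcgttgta

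Total gene counts ranged from 12650790 to 18912400 per library. The labelled cell type was checked by its markers: Vim, a filament protein of mesenchymal cells, lay between 1822 and 2758 CPM, that is counts scaled to a library total adjusted by the TMM factor, and the collagens Col1a1 and Col1a2 were at 147 CPM or more in every library. Of the other fibroblast markers Dcn was at 0 in all 12, Lum had 1 count and Lox 31 counts over all libraries, and Thy1 was at 0.0571 to 0.488 CPM. The 16 markers of other cell types summed to 63.5 to 96.1 CPM, nearly all of it Cd68, a lysosomal protein of macrophages that fibroblast lines may also express. The sums in the G3-YSD libraries were 63.5 and 83.0 CPM, those in HSV 71.7 and 84.5 CPM, and those in mock 85.0 and 86.5 CPM. The 7 of them that were tested had a median log2 fold change of 0.95 in G3-YSD and 0.87 in HSV against mock, where the median over all genes was 0.11 and 0.10. Pecam1, an endothelial adhesion protein named here after its values were seen, stood at 0.472 and 2.92 CPM in G3-YSD and 0.613 and 3.47 CPM in HSV, against 0.227 and 0.183 CPM in mock. The libraries of 2 labels stood apart: 26496 and 23997 genes were detected in G3-YSD 1 and 2 and 26241 and 23909 in HSV 1 and 2, against 21635 to 22550 in the other 8 libraries. Across genes the deviation of the first library from the mean of its label correlated at 0.965 between G3-YSD and HSV, so that G3-YSD 1 was like HSV 1 and G3-YSD 2 like HSV 2, while the libraries of one label differed. Whether labels of these 4 libraries were exchanged is not settled by the sources used here, and every mean, fold change and call of G3-YSD and HSV carries this doubt. Their values are therefore given library by library. The source name of mock, HT-DNA and hpRNA is worded differently from that of cGAMP, G3-YSD and HSV, and for the last 3 this difference cannot be told apart from the stimulus when they are set against mock. For G3-YSD and HSV the comparison with cGAMP avoids it.

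Mitochondrial genes took between 2.03% and 3.64% of all gene counts. Their share was 2.21% and 2.14% in HT-DNA 1 and 2, 2.49% and 2.12% in hpRNA, and 2.13% and 2.24% in cGAMP. It was 2.03% and 3.64% in G3-YSD 1 and 2 and 2.08% and 3.53% in HSV 1 and 2, against 2.52% and 2.07% in mock. G3-YSD 2 and HSV 2 lay above all other libraries, and G3-YSD 1 was the lowest of the 12. The exact (Clopper-Pearson) 95% interval of the G3-YSD 2 share was 3.63% to 3.65%, and such intervals cover counting error only. The mean share was 2.84% ± 1.14 in G3-YSD and 2.81% ± 1.03 in HSV, against 2.30% ± 0.318 in mock (SD, n = 2 each). In exact two-sided permutation tests over libraries, where 2 against 2 cannot go below p = 0.333, G3-YSD against mock gave p = 1.0 and HSV against mock p = 0.667. The other shares against mock, and G3-YSD and HSV against cGAMP, gave p = 1.0 in the same exact test. In all 7 comparisons the libraries of the labels overlapped.

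**Figure D1:**
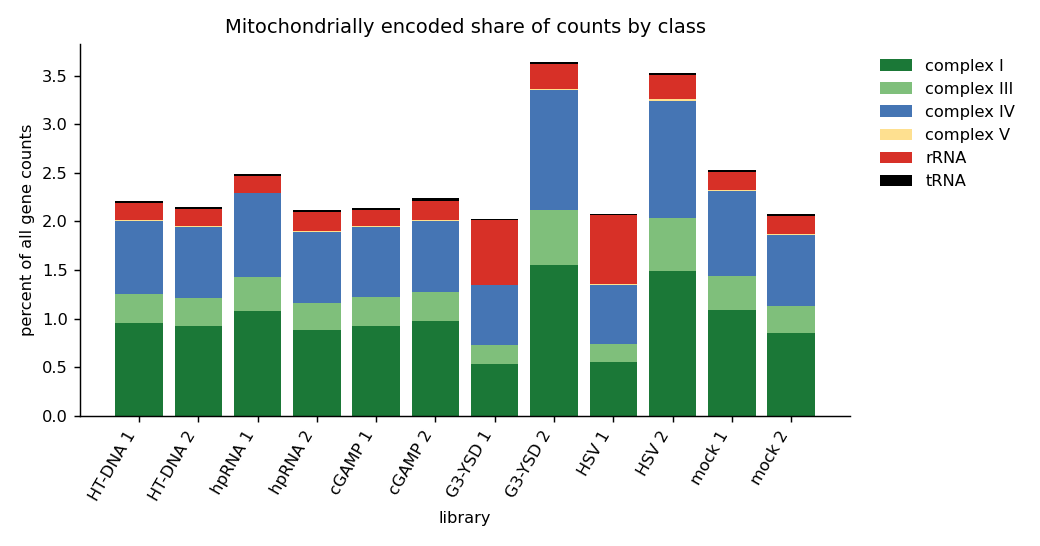
Stacked bars give the percent of all gene counts that fell on mitochondrial genes in each of the 12 libraries, split into the mRNAs of complexes I, III, IV and V, rRNAs and tRNAs. The rRNA part is 0.665% in G3-YSD 1 and 0.710% in HSV 1, against 0.185% and 0.192% in mock 1 and 2, and the mRNA part is highest in G3-YSD 2 and HSV 2.

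The make-up of that share differed far more between libraries than its size. The mitochondrial rRNAs made up 32.8% of mitochondrial counts in G3-YSD 1 and 34.1% in HSV 1, but 7.09% in G3-YSD 2 and 7.13% in HSV 2, against 7.33% and 9.24% in mock. In HT-DNA they took 8.09% and 8.36%, in hpRNA 7.05% and 9.44% and in cGAMP 7.86% and 9.0%. G3-YSD 1 and HSV 1 thus lay far above the other 10 libraries, while G3-YSD 2 and HSV 2 lay at the low end of them. Since the labels overlapped, the exact permutation test of this share gave p = 1.0 for G3-YSD against mock and for HSV against mock.

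As a share of all counts the rRNAs were higher in every G3-YSD and HSV library than in every other library. They took 0.665% and 0.258% in the G3-YSD libraries and 0.710% and 0.252% in those of HSV, against 0.185% and 0.192% in mock and at most 0.201% in HT-DNA, hpRNA and cGAMP. The exact permutation test gave p = 0.333 for G3-YSD against mock and for HSV against mock, the smallest p this design allows. HT-DNA against mock gave the same p in this exact permutation test, with a slightly lower mean of 0.179% against 0.188%. The mRNAs had the other order within the labels: 1.35% of all counts in G3-YSD 1 and 3.36% in G3-YSD 2, 1.35% in HSV 1 and 3.26% in HSV 2, against 2.32% and 1.87% in mock. tRNAs took between 0.0148% and 0.0233% of counts in all 12 libraries.

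mt-Rnr1 (chrM:70-1024, plus strand) had 4903 CPM and 1504 CPM in the G3-YSD libraries and 5272 CPM and 1467 CPM in the HSV libraries, with 1138 and 1250 CPM in mock 1 and 2. HT-DNA had 1119 and 1178 CPM, hpRNA 1091 and 1325 CPM and cGAMP 1111 and 1370 CPM. All 4 G3-YSD and HSV libraries lay above the other 8, G3-YSD 1 at 4.11 times and HSV 1 at 4.42 times the mock mean. mt-Rnr2 (chrM:1094-2675, plus strand) stood at 1817 and 1225 CPM in G3-YSD and at 1882 and 1163 CPM in HSV, against 632 and 651 CPM in mock. HT-DNA had 639 and 614 CPM, hpRNA 607 and 674 CPM and cGAMP 547 and 663 CPM. Again the 4 libraries lay above the other 8, and here the libraries of one label were closer to each other than for mt-Rnr1. The ratio of mt-Rnr1 to mt-Rnr2 counts, 2 RNAs cut from the same precursor, was 2.70 and 1.23 in the G3-YSD libraries and 2.80 and 1.26 in those of HSV, against 1.80 and 1.92 in mock. The other 6 libraries lay between 1.75 and 2.07. Neither rRNA gene has a near-identical nuclear copy in the annotation, the closest being Gm20594, with 88.5% identity to a stretch of mt-Rnr2.

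mt-Rnr2 rose in both labels and was the only mitochondrial gene to pass the test. It changed by a log2 fold change of 1.25 ± 0.256 (SE) in G3-YSD against mock, with an adjusted p of 0.0337 by edgeR's quasi-likelihood test, and by 1.25 ± 0.256 in HSV against mock, with an adjusted p of 0.0321 by the same edgeR test. So 1 of 25 mitochondrial genes tested was called in G3-YSD against mock, where 5.16% of all 16840 genes were called, 1.79% higher and 3.37% lower. In HSV against mock it was also 1 of 25, where 5.2% of genes were called, 1.73% higher and 3.47% lower. Against cGAMP, within the same source wording, mt-Rnr2 was again the gene called, by 1.33 in G3-YSD (edgeR adjusted p = 0.0281) and by 1.33 in HSV (edgeR adjusted p = 0.0275), where 5% and 5.08% of genes were called, 1.85% and 1.78% higher and 3.15% and 3.31% lower. These comparisons share their G3-YSD and HSV libraries. mt-Rnr1 had the larger change but also the larger spread, 1.42 ± 0.628 in G3-YSD (edgeR adjusted p = 0.211) and 1.5 ± 0.629 in HSV (edgeR adjusted p = 0.193). The call of mt-Rnr2 was lost without mock 1 (edgeR adjusted p = 0.232 in G3-YSD and 0.224 in HSV), without mock 2 (0.178 and 0.172), without G3-YSD 1 or G3-YSD 2 in G3-YSD (0.0735 and 0.0520) and without HSV 1 in HSV (0.0741). Its log2 fold change stayed between 0.92 and 1.49 in G3-YSD and between 0.85 and 1.54 in HSV in these leave-one-out fits.

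**Figure D2:**
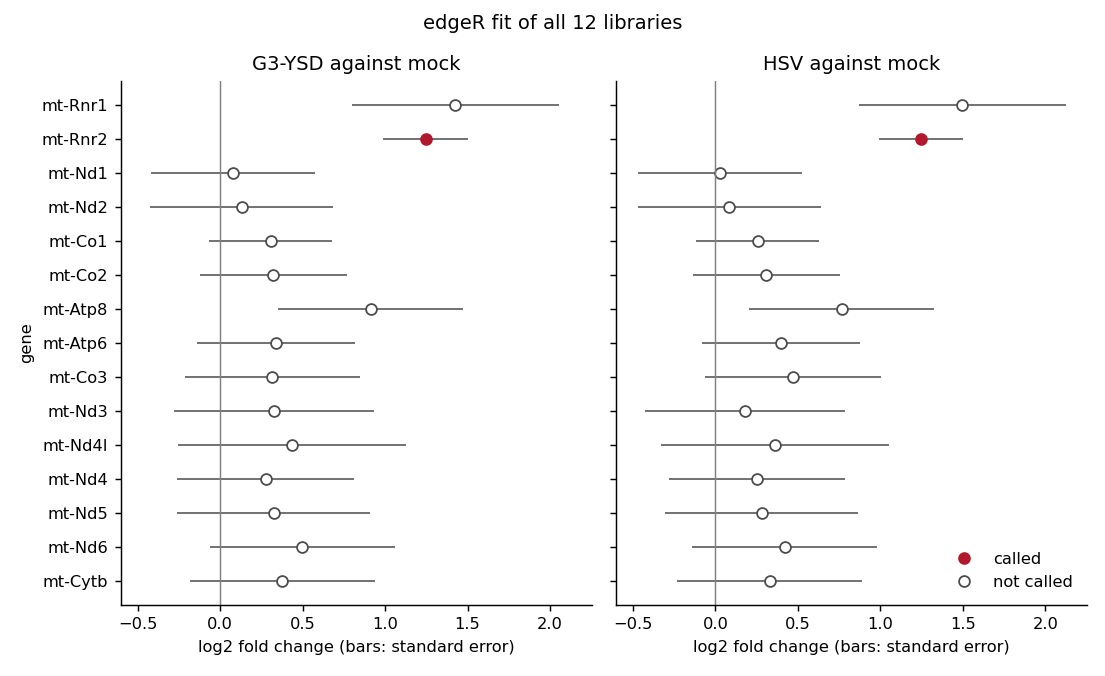
Points give the log2 fold change of each mitochondrial rRNA and protein-coding gene for G3-YSD against mock and HSV against mock in the edgeR fit of all 12 libraries, with standard errors as bars, and filled points mark adjusted p under 0.05. Only mt-Rnr2, at 1.25 in both comparisons, is filled, and the protein-coding genes lie between 0.03 and 0.91 with standard errors of 0.37 or more.

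None of the 13 mitochondrial mRNAs was called in any comparison, where 0 to 5.2% of all genes were. The means of these mRNAs under a label hid libraries that lay on different sides of mock. mt-Nd1, a subunit of complex I, had 1936 CPM and 5380 CPM in the G3-YSD libraries and 2006 CPM and 5062 CPM in the HSV libraries, with 3801 and 3129 CPM in mock 1 and 2. HT-DNA had 3429 and 3553 CPM, hpRNA 3828 and 3298 CPM and cGAMP 3348 and 3811 CPM. The first library of both labels was below, and the other library above, all of the remaining 8. mt-Co1, the catalytic subunit of cytochrome c oxidase, stood at 6046 and 12559 CPM in G3-YSD and at 5892 and 12079 CPM in HSV, against 8046 and 6998 CPM in mock. HT-DNA had 7107 and 6973 CPM, hpRNA 7977 and 6968 CPM and cGAMP 6905 and 7064 CPM. mt-Cytb, the cytochrome b of complex III, stood at 1936 and 5964 CPM in G3-YSD and at 1922 and 5719 CPM in HSV, against 3387 and 2700 CPM in mock. HT-DNA had 2949 and 2880 CPM, hpRNA 3448 and 2797 CPM and cGAMP 2906 and 3046 CPM. Both genes showed the order seen for mt-Nd1. Their fitted changes in G3-YSD against mock were 0.08 ± 0.497 for mt-Nd1, 0.31 ± 0.374 for mt-Co1 and 0.38 ± 0.561 for mt-Cytb (log2, SE), with edgeR adjusted p of 0.935, 0.632 and 0.699. In HSV against mock they were 0.03 ± 0.497, 0.26 ± 0.374 and 0.33 ± 0.561, with edgeR adjusted p of 0.977, 0.693 and 0.742.

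The same held over the class. In G3-YSD 1 all 13 mRNAs were below the mock mean, at 0.494 to 0.847 times it with a median of 0.636, whereas 48.1% of all tested genes were below it. In HSV 1, 12 of 13 were below, with a median of 0.638, against 48.3% of all tested genes; mt-Atp8 was the exception at 1.14 times. In G3-YSD 2 all 13 were above, at 1.55 to 2.94 times with a median of 1.81, where 49.9% of all tested genes were above and their median was 1.01 times. In HSV 2 all 13 were above, at 1.46 to 2.28 times with a median of 1.84, where 49.9% of all genes were above. G3-YSD 1 held 0.223 to 0.481 times the level of G3-YSD 2 for each mRNA, and HSV 1 held 0.289 to 0.5 times that of HSV 2. The mRNAs come from shared precursors and are not independent of each other.

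**Figure D3:**
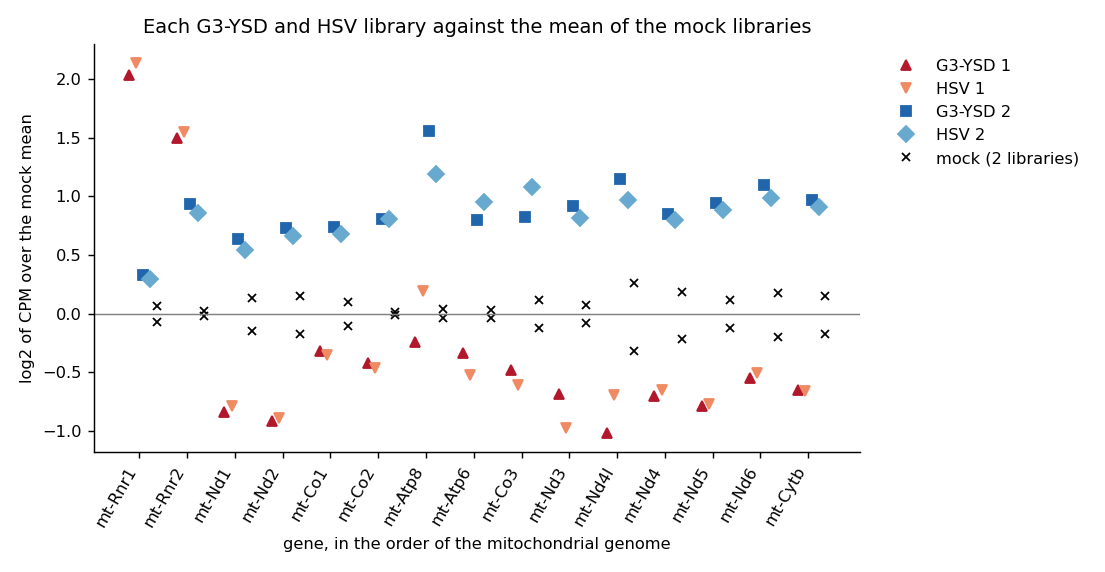
Each point is the log2 ratio of a gene's CPM in one G3-YSD or HSV library to the mean of the mock libraries, with mock 1 and mock 2 as crosses, for the rRNA and protein-coding genes in genome order. mt-Rnr1 lies at 2.04 and 2.14 in G3-YSD 1 and HSV 1, where the 13 mRNAs lie at -1.02 to 0.19, and the mRNAs lie at 0.55 to 1.56 in G3-YSD 2 and HSV 2.

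When G3-YSD 1 and HSV 1 were left out together, a setting chosen after seeing the data, 17 of 26 mitochondrial genes were called in G3-YSD against mock, all higher, and 16 of 26 in HSV against mock, all higher. In the same edgeR fits 43.6% and 43.7% of all genes were called, 21.3% higher in each. When G3-YSD 2 and HSV 2 were left out, 15 of 25 were called in G3-YSD against mock, 2 higher (mt-Rnr1 and mt-Rnr2) and 13 lower, and 17 of 25 in HSV against mock, 3 higher and 14 lower. In these fits 38.3% and 39.1% of all genes were called, 20.3% and 20.2% higher and 18.1% and 19% lower. mt-Rnr2 was called higher in all 4 of these fits and mt-Cytb was called in all 4, higher in the fits without the first libraries and lower in those without the others. Each of these fits has 1 library of the stimulus, which is assumed to vary like the libraries of the other labels. Leaving out one library alone keeps the wide pair of the other label in the estimate of the spread.

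Among the mRNAs the balance between complexes also differed between libraries. Complex IV mRNAs, mostly mt-Co1, made up 45.8% and 36.8% of mRNA counts in G3-YSD and 44.8% and 37.0% in HSV, against 37.5% and 39.3% in mock. Complex I mRNAs made up 39.5% and 46.0% in the G3-YSD libraries and 40.7% and 45.7% in those of HSV, against 46.8% and 45.7% in mock. The mRNA of complex III, mt-Cytb, stayed between 14.1% and 16.8%, and complex V mRNAs between 0.377% and 0.579%, in all 12 libraries. G3-YSD 1 and HSV 1 thus held the lowest complex I and the highest complex IV shares. The ratio of mt-Nd1 to mt-Cytb counts was 1.00 and 0.902 in the G3-YSD libraries and 1.04 and 0.885 in those of HSV, against 1.12 and 1.16 in mock, and the other 6 libraries lay between 1.11 and 1.25. Here all 4 G3-YSD and HSV libraries were below all others, whichever way their mRNA totals lay.

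**Figure D4:**
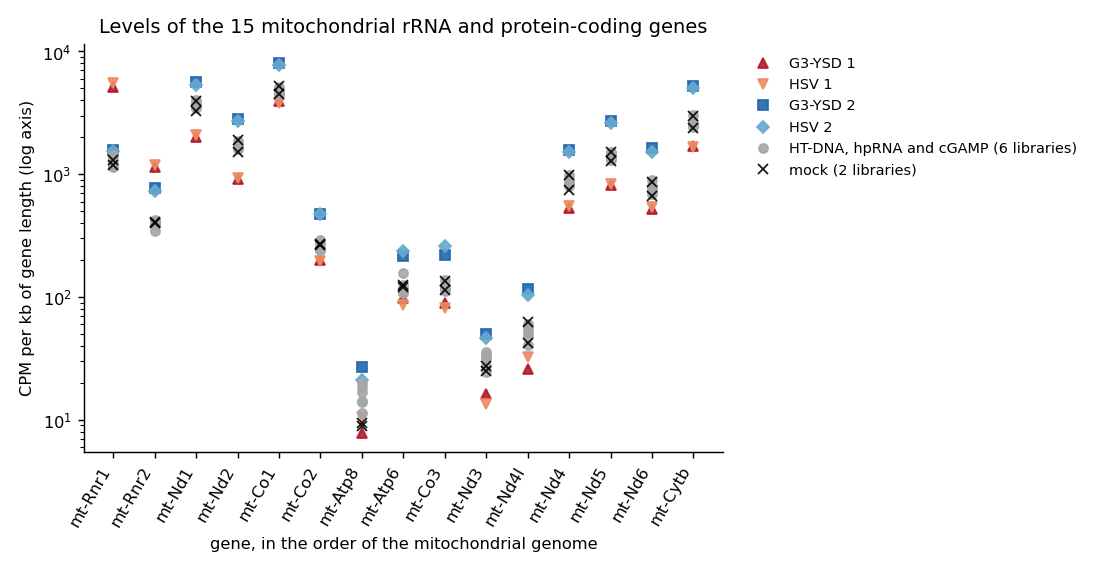
Levels of the rRNA and protein-coding genes in CPM per kb of gene length, on a log axis, in genome order, with one point per library. mt-Co1 is highest on average at 5103 CPM per kb and mt-Atp8 lowest at 15, and the points of the HT-DNA, hpRNA, cGAMP and mock libraries lie close together for most genes.

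Per kb of gene length, the mean level over the 12 libraries ran from 5103 CPM per kb for mt-Co1, over 3708 for mt-Nd1, 2889 for mt-Cytb, 1983 for mt-Rnr1, 1747 for mt-Nd2 and 1514 for mt-Nd5, to 928 for mt-Nd4, 868 for mt-Nd6 and 585 for mt-Rnr2. The place of mt-Rnr1 rests on G3-YSD 1 and HSV 1: it was below mt-Nd2 in the other 10 libraries, and its median of 1348 CPM per kb lay below those of mt-Nd2 at 1664 and mt-Nd5 at 1389. A lower tier held mt-Co2 at 286 CPM per kb, mt-Co3 at 136, mt-Atp6 at 135, mt-Nd4l at 58.1, mt-Nd3 at 30.3 and mt-Atp8 at 15. Apart from mt-Atp8, every gene of the lower tier has an annotated near-identical nuclear copy over nearly its whole length. mt-Atp8 shares its last 43 bases with mt-Atp6, and these bases are part of the copy Gm10925. Only annotated transcripts were searched, so the stretch of chromosome 1 between Gm28661 and Gm10925, the copies of mt-Co2 and mt-Atp6, was not compared with mt-Atp8. How reads that match both a mitochondrial gene and a copy were placed is not stated, so the levels of all genes of the lower tier are uncertain. Over the 8 HT-DNA, hpRNA, cGAMP and mock libraries the highest CPM of a gene was 1.16 times its lowest for mt-Co1, 1.18 times for mt-Nd5, 1.22 times for mt-Nd1 and 1.28 times for mt-Cytb, and the widest such ratio among the mRNAs was 2.25 for mt-Atp8. Over all 12 libraries the same ratios were 2.13, 3.33, 2.78 and 3.10, and 4.83 for mt-Rnr1.

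The nuclear copies were counted beside their mitochondrial counterparts in every library. Gm28661 had 0.838 to 1.01 times the counts of mt-Co2, Gm10925 had 0.972 to 1.49 times those of mt-Atp6, Gm28437 had 1.09 to 1.63 times those of mt-Co3 and Gm10222 had 0.749 to 1.41 times those of mt-Nd4l. Gm28438 had 3.86 to 7.01 times the counts of mt-Nd3. mt-Co1 and mt-Nd4, whose copies cover only a part of them, had copy ratios of 0.0156 to 0.0191 for Gm29216 and 0.0293 to 0.0383 for Gm28439. The 7 copies together took 7698 to 14298 counts, equal to 2.25% to 2.98% of the mitochondrial counts of their library, and none was called in any comparison, where 0 to 5.2% of genes were. Counts on these copies and on the 7 mitochondrial genes they match are uncertain, since reads of one can be counted on the other. The 6 mRNAs without an annotated copy of their own had medians of 0.606 and 1.94 times the mock mean in G3-YSD 1 and 2. In HSV 1 and 2 these were 0.608 and 1.86 times. Among them is mt-Atp8, whose last 43 bases lie in the copy Gm10925. The others, mt-Nd1, mt-Nd2, mt-Nd5, mt-Nd6 and mt-Cytb, gave the same picture. Their log2 ratios to the mock mean were -0.91 to -0.55 in G3-YSD 1 and -0.89 to -0.51 in HSV 1. In G3-YSD 2 they were 0.63 to 1.10 and in HSV 2 0.55 to 0.98.

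**Figure D5:**
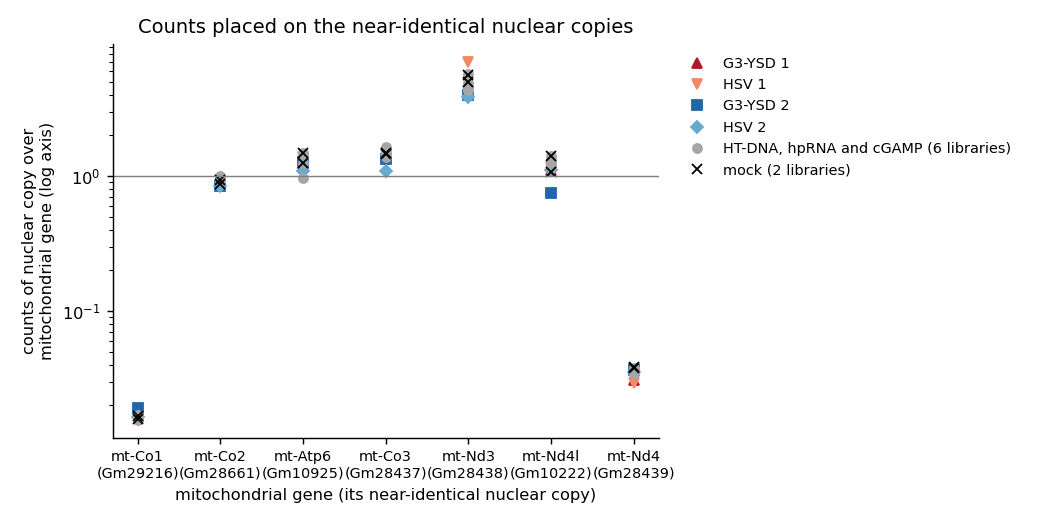
Points give the counts of each near-identical nuclear copy on chromosome 1 divided by the counts of its mitochondrial counterpart, on a log axis, in the 12 libraries, in the order of the mitochondrial genome. The ratio lies near 1 for the copies of mt-Co2, mt-Atp6, mt-Co3 and mt-Nd4l, at 3.86 to 7.01 for that of mt-Nd3, and under 0.04 for those of mt-Co1 and mt-Nd4.

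Counts on tRNA genes were few and unevenly spread. The 22 tRNA genes are 59 to 75 bases long, shorter than a read, so a read of full length over a tRNA gene also covers its neighbours. 10 of them passed the filter on low counts, 12 did not, and mt-Tf and mt-Ts1 had no count in any library, which allows up to 3 counts in each. mt-Tn, mt-Tc, mt-Tp and mt-Tl2, the tRNAs for asparagine, cysteine, proline and a leucine tRNA, held 86.5% to 95.6% of tRNA counts. mt-Tn, mt-Tc and mt-Tp are encoded on the minus strand, and minus-strand tRNAs held 80.5% to 93.0% of tRNA counts. mt-Tn (chrM:5089-5159) and mt-Tc (chrM:5192-5257) are shown because they were counted most often of the tRNAs. Unlike most mRNAs they were not below mock in G3-YSD 1 and HSV 1.
mt-Tn, chrM:5089-5159, minus strand: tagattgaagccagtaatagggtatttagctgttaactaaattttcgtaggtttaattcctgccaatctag
mt-Tc, chrM:5192-5257, minus strand: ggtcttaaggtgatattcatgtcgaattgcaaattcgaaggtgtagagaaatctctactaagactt

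mt-Tn stood at 51.0 and 62.7 CPM in G3-YSD and at 62.1 and 51.0 CPM in HSV, against 42.5 and 38.6 CPM in mock, and mt-Tc at 47.8 and 60.8 CPM in G3-YSD and 63.1 and 51.4 CPM in HSV, against 42.7 and 38.4 CPM in mock. The G3-YSD and HSV libraries lay above both mock libraries for these tRNAs, but so did most of the HT-DNA, hpRNA and cGAMP libraries. For mt-Tn the latter stood at 41.5 to 62.2 CPM, and only HT-DNA 2 was below a mock library. For mt-Tc they stood at 44.2 to 63.8 CPM, all above both mock libraries. The fitted log2 changes of mt-Tn and mt-Tc against mock were 0.49 and 0.42 for G3-YSD and 0.48 and 0.50 for HSV. Their edgeR adjusted p lay between 0.180 and 0.241. The same changes were 0.38 and 0.36 for hpRNA, 0.39 and 0.44 for cGAMP and 0.14 and 0.20 for HT-DNA. mt-Tl2, on the plus strand between mt-Ts2 and mt-Nd5, had 5.43 and 22.4 CPM in G3-YSD and 9.01 and 22.1 CPM in HSV, against 21.6 and 19.7 CPM in mock. Like the mRNAs it was low in G3-YSD 1 and HSV 1, but in G3-YSD 2 and HSV 2 it stayed within the 17.9 to 26.3 CPM of the other 8 libraries. mt-Te, on the minus strand beside mt-Nd6, had 2.78 and 10.8 CPM in G3-YSD and 1.41 and 12.7 CPM in HSV, against 10.9 and 6.28 CPM in mock. mt-Tp had 35.8 and 72.9 CPM in G3-YSD and 47.4 and 77.1 CPM in HSV, against 46.2 and 41.2 CPM in mock. Within each label mt-Tp was ordered like the mRNAs, but in HSV 1 it was not below mock. None of the 10 tRNAs tested was called in G3-YSD or HSV against mock, where 5.16% and 5.2% of all genes were.

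In HT-DNA, hpRNA and cGAMP no mitochondrial gene was called against mock, and neither was any other gene, 0 of 16840 in each edgeR comparison, that is 0% of all genes. At an unadjusted p under 0.05 the counts over all genes were 62 in HT-DNA, 58 in hpRNA and 99 in cGAMP, and none of the 25 mitochondrial genes was among them. This fit takes its spread also from the G3-YSD and HSV libraries, which differed within their label. A fit of only the 8 HT-DNA, hpRNA, cGAMP and mock libraries also called 0 genes. There 288, 238 and 483 of 14543 genes were under this unadjusted p, with 1, 1 and 2 mitochondrial genes among them. DESeq2 called no mitochondrial gene in these comparisons, and over all genes 1 in HT-DNA, 1 in hpRNA and 0 in cGAMP. The median log2 fold change of the 25 genes was -0.03 in HT-DNA, 0.02 in hpRNA and -0.02 in cGAMP, against medians of 0.00 over all genes. The largest changes were those of mt-Tw in HT-DNA, at -0.94, and of mt-Atp8 in hpRNA and cGAMP, at 0.90 and 0.94, 2 genes of low counts. For mt-Rnr2 the log2 fold changes against mock were -0.03 ± 0.252 in HT-DNA, -0.0033 ± 0.252 in hpRNA and -0.09 ± 0.252 in cGAMP (SE). In G3-YSD and HSV against mock the median over the 25 genes was 0.32 and 0.33, against 0.11 and 0.10 over all genes. The median over the mitochondrial genes tested changed sign with the library left out. In G3-YSD it was 0.73 without G3-YSD 1 and -0.61 without G3-YSD 2, and in HSV 0.80 without HSV 1 and -0.62 without HSV 2.

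The genes that make, process and use mitochondrial transcripts are encoded in the nucleus, and lists of them were set beside the mitochondrial genes in the same fit. Of the 20 factors of mitochondrial transcription and replication none was called in G3-YSD or HSV against mock, where 5.16% and 5.2% of all genes were. The list's median log2 fold changes were -0.23 and -0.21, against 0.11 and 0.10 over all genes. Polrmt, the mitochondrial RNA polymerase, stood at 13.8 and 28.5 CPM in G3-YSD and 14.7 and 24.9 CPM in HSV, against 35.8 and 34.2 CPM in mock, and its fitted changes of -0.73 and -0.82 had edgeR adjusted p of 0.232 and 0.187. All 4 libraries lay below both mock libraries, the first library of each label lowest. Tfam, which packs and activates the mitochondrial genome, stood at 56.6 and 26.7 CPM in G3-YSD and 56.0 and 27.7 CPM in HSV, against 47.1 and 50.0 CPM in mock. Tfam was thus below mock in the libraries where the mitochondrial mRNAs were above it, and above mock in the other 2. Its edgeR adjusted p was 0.740 and 0.752.

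Of 30 genes of mitochondrial RNA processing, stability and decay that were tested, 1 fell in G3-YSD and in HSV against mock and none rose, where 3.37% and 3.47% of all genes were lower, so that the share in the list was near that of all genes. This gene was Fastkd1, an RNA-binding protein of mitochondria, at 10.5 and 10.2 CPM in G3-YSD and 12 and 9.17 CPM in HSV, against 20.6 and 22.3 CPM in mock, with log2 fold changes of -1.05 ± 0.179 (edgeR adjusted p = 0.0212) and -1.02 ± 0.179 (edgeR adjusted p = 0.0213). Lrpprc, which stabilises mitochondrial mRNAs, stood at 188 and 331 CPM in G3-YSD and 174 and 316 CPM in HSV, against 229 and 239 CPM in mock. Its libraries were ordered like the mRNAs. Pnpt1, a subunit of the enzyme that degrades mitochondrial RNA, was ordered the other way, with 179 and 65.0 CPM in G3-YSD and 184 and 61.4 CPM in HSV, but mock itself had 58.4 and 116 CPM. Neither was called, with edgeR adjusted p between 0.681 and 0.911. Mtpap, named here after its values were seen, stood at 27.3 and 10.7 CPM in G3-YSD and 23.7 and 11.6 CPM in HSV, against 24.5 and 27.1 CPM in mock.

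Of 10 regulators of mitochondrial biogenesis tested, 2 fell in both labels against mock and none rose, beside 3.37% and 3.47% lower and 1.79% and 1.73% higher over all genes. Esrra, a nuclear receptor that activates genes of energy metabolism, had log2 fold changes of -1.04 in G3-YSD and -0.92 in HSV (edgeR adjusted p = 0.0131 and 0.0168), and the transcription factor Yy1 had -0.73 and -0.75 (edgeR adjusted p = 0.0212 and 0.0187). Ppargc1a, the coactivator PGC-1α, stood at 37.7 and 13.4 CPM in G3-YSD and 35.9 and 14.2 CPM in HSV, against 18.4 and 13.3 CPM in mock, and was not called. Myc, a regulator of the same list named here after its values were seen, was not called either. It stood at 221 and 1914 CPM in G3-YSD and 204 and 1892 CPM in HSV, against 224 and 281 CPM in mock. In HT-DNA, hpRNA and cGAMP it lay between 237 and 283 CPM. Myc was thus far above mock in the libraries where the mitochondrial mRNAs were high, but its list did not move as one. Nrf1 was lower than mock there: 32.1 CPM in G3-YSD 2, 33.6 CPM in HSV 2 (mock 1: 48.7, mock 2: 61.0). So was Pprc1, with 40.9 CPM in G3-YSD 2 and 40.7 CPM in HSV 2 (mock 1: 101, mock 2: 137). Ppargc1b was higher, with 33.6 CPM in G3-YSD 2 and 37.3 CPM in HSV 2 (mock 1: 28.0, mock 2: 26.8). These regulators were also named after their values were seen. Of 15 genes of mitophagy and mitochondrial stress tested, 2 fell and none rose in both labels, with the same 3.37% and 3.47% of all genes lower: Bnip3, a receptor for mitophagy, by -1.63 and -1.95 (edgeR adjusted p = 0.0176 and 0.0127), and the stress cytokine Gdf15 by -1.93 and -1.91 (edgeR adjusted p = 0.0450 and 0.0461). Bnip3 stood at 32.1 and 27.8 CPM in G3-YSD and 25.2 and 22.9 CPM in HSV, against 88.0 and 97.4 CPM in mock.

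The calls of nuclear genes in these lists also depended on single libraries. Counting also Mrpl43, Mrpl2 and Fbn1 given below, 7 list genes were called in G3-YSD against mock and 8 in HSV against mock, and 0 of them were called without mock 1 or without mock 2 (edgeR adjusted p between 0.0782 and 0.244). None was called in G3-YSD without G3-YSD 2 (0.0520 to 0.119) or in HSV without HSV 2 (0.0512 to 0.107), nor in fits of the 4 libraries compared alone. Without G3-YSD 1 the calls of Fastkd1, Gdf15 and Mrpl43 were lost in G3-YSD, and without HSV 1 those of Gdf15 and Mrpl2 in HSV. With upper quartile scaling those of Gdf15 and Mrpl43 were lost in both, and HSV with the replicate block lost Gdf15 (0.0505), and with no filter on low counts Fbn1 and Mrpl2.

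Against cGAMP 3.15% of all genes were lower in G3-YSD and 3.31% in HSV. Of the 30 RNA processing genes 2 fell in both labels, Fastkd1 and Ptcd1, a protein of mitochondrial tRNA processing, the last by -0.86 in G3-YSD and -0.80 in HSV (edgeR adjusted p = 0.0289 and 0.0347). Among the stress genes Bnip3 fell and Ddit3, a transcription factor of the stress response, rose by 0.75 and 0.77 (edgeR adjusted p = 0.0442 and 0.0405), where 1.85% and 1.78% of all genes were higher. Gdf15, called against mock, was not called against cGAMP, at -1.81 and -1.79 (edgeR adjusted p = 0.0550 and 0.0567). Without cGAMP 1 or cGAMP 2, none of the 9 list genes called in G3-YSD and the 8 called in HSV against cGAMP was called. Without G3-YSD 2 only Esrra of the 9 was called in G3-YSD, and without HSV 2 none in HSV. Without G3-YSD 1 the calls of Fastkd1, Bnip3 and Ddit3 were lost in G3-YSD, and without HSV 1 those of Ptcd1 and Ddit3 in HSV.

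Of 77 mitochondrial ribosomal proteins tested, 1 fell in G3-YSD against mock, and 1 rose and 1 fell in HSV against mock, a smaller share than the 3.37% and 3.47% lower and 1.73% higher in HSV over all genes. Mrpl43 was the one that fell, by -0.81 and -0.84 (edgeR adjusted p = 0.0436 and 0.0381), and Mrpl2 rose in HSV by 0.52 (edgeR adjusted p = 0.0397). The list's median log2 fold change was 0.00 in G3-YSD and -0.02 in HSV, against 0.11 and 0.10 over all genes. Of 84 nuclear-encoded respiratory chain subunits tested none was called against mock, where 5.16% and 5.2% of all genes were in G3-YSD and HSV. The median of these subunits was 0.34 in G3-YSD and 0.36 in HSV. Their summed level was 13618 CPM and 20424 CPM in the G3-YSD libraries, and 14246 CPM and 20032 CPM in the HSV libraries, against 13683 and 13790 CPM in mock. The nuclear subunits thus stood high in the libraries where the mitochondrial mRNAs were high, and near the mock level where the mitochondrial mRNAs were low. Of 9 fibroblast markers tested 1 rose in both labels (Fbn1, a matrix protein, by 0.84 and 0.75), where 1.79% and 1.73% of all genes were higher. Of 7 markers of other cell types tested none was called, where 5.16% and 5.2% of all genes were. Genes detected and the summed level of the nuclear respiratory chain subunits differed between the first and second G3-YSD and HSV libraries, as the mitochondrial mRNAs did. Bnip3 and Fastkd1 were below mock in all 4 libraries. The part of genes detected and of the nuclear genes in the result was not tested.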

How the data were processed

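Each library has a deposited table of raw read counts by Ensembl gene. Per the submitters' processing notes HISAT2, HTSeq and the build mm10 were used, and no version, annotation release or strand setting is recorded there, so overlapping or opposite-strand mitochondrial genes may share counts. Symbols came from GENCODE M21, which matched 54409 of 54532 genes. Counts were fitted with edgeR 4.0.16 in R 4.3.3: filterByExpr, TMM, 1 term per label over all 12 libraries (6 residual degrees of freedom), quasi-likelihood test, Benjamini-Hochberg adjustment over 16840 genes, called under 0.05. CPM are on the TMM scale. Shares use all gene counts and exact two-sided permutation tests in SciPy 1.17.1. Nuclear copies were found with BLAST+ 2.17.0+ against the transcripts. DESeq2 1.42.0, other scalings, no filter, smaller sets of libraries, a replicate block and leaving out each library were tried. The fits were run on simulated counts with known changes. These counts had a smaller spread between libraries than was fitted here, where the common biological coefficient of variation was 0.397. The simulation therefore does not show how the fits perform at the spread of these data. Members and gene lists were chosen with earlier results of these data known. All 37 members enter the shares by class, but not each is given a level of its own. Of each nuclear list up to 4 called genes are named, and Tfam, Polrmt, Lrpprc, Pnpt1, Bnip3 and Ppargc1a whatever their result.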

Additional observations from a re-analysis of the deposited data

How the results depend on the processing

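HT-DNA, hpRNA and cGAMP against mock had 0 mitochondrial genes called under every alternative. For the other 4 comparisons DESeq2, upper quartile scaling and scaling without mitochondrial genes kept 1 call, mt-Rnr2. No filter on low counts gave 2 (mt-Rnr1 and mt-Rnr2) in each, and a fit of the 4 libraries compared alone gave 0 in each. Leaving out 1 library gave 0 calls in G3-YSD against mock and 0 to 1 in HSV against mock, G3-YSD against cGAMP and HSV against cGAMP. Without G3-YSD 1 and HSV 1 the calls were 17, 16, 16 and 16 for G3-YSD and HSV against mock and G3-YSD and HSV against cGAMP, all higher. Without G3-YSD 2 and HSV 2 they were 15, 17, 14 and 13, mostly lower.

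The number pairs no libraries by the labels: deviations of same-numbered libraries correlated at 0.965 between G3-YSD and HSV and at 0.51 to 0.842 among HT-DNA, hpRNA, cGAMP and mock, but at -0.403 to -0.449 between these sets, so the number could hint at pairs only within each set. The replicate block left the mitochondrial calls at 1 and gave 1211, 1214, 1142 and 1079 calls over all genes, and a crossed block 1878, 1935, 1727 and 1632, against 869, 876, 842 and 856 without a block. DESeq2 called 2090, 2135, 2019 and 1900, and no filter 1894, 1892, 1650 and 1633. A fit of the 4 libraries compared gave 0 over all genes in each (1766, 1800, 1959 and 1897 at an unadjusted p under 0.05), as did leaving out mock 1 or mock 2 against mock and cGAMP 1 or cGAMP 2 against cGAMP (2064 to 2655 at an unadjusted p under 0.05). Without G3-YSD 2 there were 77 against mock and 206 against cGAMP, and without HSV 2 130 and 146. The cause was not tested. Upper quartile scaling turned the 302 higher and 567 lower genes of G3-YSD against mock into 364 and 314, and moved the median of all genes to 0.24.

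Differences in mitochondrial share, in percentage points, ranged over leave-one-out fits from -0.349 to 0.102 in HT-DNA, -0.221 to 0.230 in hpRNA, -0.339 to 0.112 in cGAMP, -0.269 to 1.35 for G3-YSD and -0.219 to 1.23 for HSV against mock, and from -0.156 to 1.46 for G3-YSD and -0.105 to 1.35 for HSV against cGAMP. The rRNA share of mitochondrial counts against mock ranged from -1.19 to 24.5 in G3-YSD and -1.15 to 25.9 in HSV.

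mt-Nd1 reversed its small log2 change with the block (-0.043 in G3-YSD, -0.084 in HSV), the crossed block (-0.020 and -0.059), without mock 2 (-0.05 and -0.10) and, in HSV, with no filter (-0.0042). Without the second library of the label mt-Nd1, mt-Co1 and mt-Cytb were at -0.85, -0.33 and -0.67 for G3-YSD and -0.80, -0.36 and -0.67 for HSV. Without G3-YSD 2 and HSV 2 they were at -0.85, -0.32 and -0.66 for G3-YSD and -0.79, -0.36 and -0.67 for HSV, and without G3-YSD 1 and HSV 1 at 0.63, 0.73 and 0.96 for G3-YSD and 0.54, 0.67 and 0.90 for HSV. The cause was not tested.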
